A study of Homo sapiens with 32 samples.

Results

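The response of TCam-2 cells to RANKL was examined in 8 libraries, 4 from cells given RANKL and 4 from cells given vehicle, out of 32 libraries in the series and 16 of this line. The libraries were chosen by their labels alone, and all genes of the count table entered the comparison. TCam-2 is an established human cell line derived from a seminoma, a germ cell cancer of the testis that resembles primordial germ cells. Cells were treated in serum-containing medium for 48 h with RANKL at 1 µg/ml or with D-PBS as vehicle, and no other agent or genetic change is named for these groups. The 2 libraries with the same replicate number came from the same cell passage (118, 120, 121 or 122 for replicates 1 to 4), and per the labels the 4 passages were independent experiments. The other TCam-2 libraries, from cells given OPG or denosumab, entered only the estimate of the spread, except where their values are given. The denosumab libraries are so named by their titles and treatment labels, whereas the treatment protocol does not name denosumab. The 4 passages are of 1 cell line, so the spread between them is that of repeated cultures.

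RANKL (encoded by TNFSF11) is a cytokine of the tumour necrosis factor family. It binds the receptor RANK (TNFRSF11A), which recruits TRAF adaptors and activates NF-kB and the AP-1 factors, and in bone this pathway drives the formation of osteoclasts. The soluble decoy receptor OPG (TNFRSF11B) binds RANKL and keeps it from RANK. The question asked of these libraries was which transcripts of seminoma-derived cells differ after the ligand is added.

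Total counts lay between 10920208 and 20113121 per library, and 21491 to 26009 genes had counts. The lineage of the line was visible in all 8 libraries: SOX17, a factor that specifies human germ cells and marks seminoma, was at 155 ± 26.7 CPM (read counts scaled to the library total, mean ± SD, n = 4) in vehicle and 136 ± 12.8 CPM in RANKL libraries, and SOX2, which marks embryonal carcinoma instead, was at 2.41 ± 1.06 and 2.01 ± 0.375 CPM. The other defining markers of embryonal carcinoma were not all low: TNFRSF8 was at 1.88 ± 0.288 and 1.95 ± 0.492 CPM, GDF3 at 12.8 ± 3.07 and 11.5 ± 1.16 CPM and DNMT3B at 60.0 ± 3.55 and 62.0 ± 6.41 CPM, and all 13 genes listed for embryonal carcinoma had counts. Summed markers of immune cells did not exceed 2.71 CPM in any library, with 5 of 7 listed markers seen, and those of fibroblasts summed to 251 to 322 CPM, with 8 of 8 seen. COL1A2 alone made up 222 to 283 CPM of that sum, whereas DCN had 1 count in the 8 libraries and LUM had 3 counts in vehicle and 33 in RANKL libraries. RNA integrity numbers (RIN, a measure of intactness on which 10 is best) were low in RANKL replicates 2 (6.1) and 4 (3.7) and 9.2 or more in every other TCam-2 library. The library that stood apart in its counts was another one, vehicle replicate 4 (RIN 9.5). Distance between libraries was taken as the scaled median absolute deviation of their log2 ratios. The median distance of vehicle replicate 4 from the other libraries of the line was 0.34, against 0.175 to 0.264 for the other 7. RANKL replicate 4 was at 0.189. Whether the labels or the RIN values of these libraries of passage 122 were exchanged was not tested, and the labels are used as given; every ratio of passage 122 and every fit that leaves out libraries by RIN rests on them. Summaries over all genes are therefore given with all 8 libraries, without RANKL replicates 2 and 4, and without vehicle replicate 4. The same is done for several gene lists, though not for every one. Of the 124 genes followed in all fits, 44 had a log2 fold change without vehicle replicate 4 that was of the other sign or smaller by over 1.5 times, against 0 to 9 when any of the other 7 libraries was left out.

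Across all genes, none of 16621 tested passed the threshold (edgeR quasi-likelihood test with passage as a block, Benjamini-Hochberg adjusted p under 0.05), which is 0% called. DESeq2 called 4 genes, RN7SL1, KRT7, MT-ND4L and MT-ND5. At an unadjusted p under 0.05, 997 genes were higher with RANKL (6% of those tested) and 990 were lower (5.96%). The median log2 fold change was -0.0044, and the median standard error (SE) of a gene at 10 CPM or more was 0.0913 on the log2 scale. Without RANKL replicates 2 and 4, 0 of 17232 genes passed, and 884 (5.13%) were higher and 834 (4.84%) lower at an unadjusted p under 0.05. Without vehicle replicate 4, 1 gene passed (RN7SL1, 0.00587% of 17034), and the unadjusted counts were 493 (2.89%) and 455 (2.67%). Without all 3 libraries 0 of 16966 passed, and the unadjusted shares were 4.67% and 4.13%. In passages 118 and 121 alone, where all TCam-2 libraries have high RIN values, 13 of 16478 genes passed (0.0789%). Of these, 8 are described below (FOS, CCNG1, MT-ND5, RN7SL1, SNHG25, C19orf48P, SMC3 and ZFTRAF1). That fit compares only 2 RANKL with 2 vehicle libraries, so its calls are uncertain. HBB, also among the 13, had 77 counts in vehicle replicate 1 and 0 in vehicle replicate 3 and RANKL replicates 1 and 3. A gene was higher in all 4 passage pairs in 9.81% of cases and lower in all 4 in 11%, and its 4 RANKL values lay entirely above the 4 vehicle values in 1.26% and entirely below in 1.43%. In what follows, a gene is said to be higher or lower as a description of its values, and with all 8 libraries none of the differences passed the adjusted threshold. These words do not mean that a difference was particular to RANKL. Mean CPM of TRAF6 was 16.2 with vehicle, 19.5 with RANKL, 19.3 with OPG and 19.6 with denosumab. For NFAT5 these means were 26.9, 39.1, 35.8 and 37.2. Other genes differed in this, such as ATF4, with 508, 448, 513 and 448.

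The receptor was present at a low level in this line. TNFRSF11A (ENSG00000141655, RANK; hg38 chromosome 18, 62325287 to 62387659) was at 2.56, 0.733, 1.97 and 2.94 CPM in the vehicle libraries of passages 118, 120, 121 and 122, and at 3.30, 1.99, 2.54 and 1.91 CPM in the RANKL libraries of the same passages. These ranges overlapped, with RANKL above vehicle in 3 of 4 pairs. The fitted log2 fold change was 0.26 ± 0.30 (SE, unadjusted p = 0.4), 0.33 without RANKL replicates 2 and 4, and between 0.04 (without vehicle replicate 2) and 0.57 (without vehicle replicate 4) when 1 library was left out. The RNA of the ligand and of the decoy receptor was barely detected: TNFSF11 had 6 counts in the vehicle libraries, all in replicate 3, and 4 in the RANKL libraries, all in replicate 2. TNFRSF11B had 0 counts in the 4 vehicle libraries, where a floor of 3 counts over the group corresponds to 0.0566 CPM, and 2, 3, 0 and 1 counts in the RANKL libraries. Neither gene was tested.

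Of the 6 tested genes of the RANKL axis, which includes the related TRAIL death receptors, 0 were higher and 2 were lower at an unadjusted p under 0.05, where 6% and 5.96% of all genes were, and their median log2 fold change was 0.05 against -0.0044 for all genes. TNFRSF10C, a decoy receptor for TRAIL that carries no death domain, was at 15.8, 19, 19.5 and 16.8 CPM in vehicle and 11.9, 15.4, 14.9 and 14.8 CPM in RANKL libraries. Every RANKL value of this gene lay below every vehicle value, and the log2 fold change was -0.32 ± 0.12 (SE, unadjusted p = 0.0178), or -0.45 without RANKL replicates 2 and 4. TNFRSF10A, a TRAIL receptor that does signal death, had a log2 fold change of -0.27 ± 0.12 with overlapping groups and RANKL below vehicle in 3 of 4 pairs, and -0.14 without RANKL replicates 2 and 4. The other death-signalling TRAIL receptor, TNFRSF10B, had 57.6 to 69.6 CPM in vehicle and 66.0 to 70.4 CPM in RANKL libraries. LGR4, which has been described as a further receptor for RANKL, was at 0.18 ± 0.10, with log2 ratios of -0.09, -0.11, 0.24 and 0.66 that were highest in passage 122, and LGR4 was at 0.04 without vehicle replicate 4.

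Downstream of the receptor, 22 adaptors and kinases were tested. At an unadjusted p under 0.05, 2 were higher and 2 were lower (all genes 6% and 5.96%). The median log2 fold change was 0.06. TRAF6, the adaptor through which RANK mainly signals, was at 16.8, 15.8, 17.2 and 14.8 CPM in vehicle and 21, 15.7, 22 and 19.4 CPM in RANKL libraries. It was above vehicle in 3 pairs and level in passage 120, with a log2 fold change of 0.27 ± 0.11 (SE, unadjusted p = 0.0282) that was 0.43 without RANKL replicates 2 and 4 and 0.19 without vehicle replicate 4. TAB2, which links TRAF6 to the kinase TAK1, was higher in 4 of 4 pairs at 0.22 ± 0.09 (0.14 without vehicle replicate 4). TRAF2, an adaptor shared by many receptors of this family, was at -0.21 ± 0.10 and, without vehicle replicate 4, at -0.08, and SQSTM1, the scaffold p62 that binds TRAF6, at -0.15 ± 0.06 with RANKL below vehicle in 4 of 4 pairs. MAP3K14, the kinase NIK of the alternative NF-kB branch, was at -0.21 ± 0.15 (-0.10 without vehicle replicate 4). Without RANKL replicates 2 and 4, 5 of the 22 were higher and 0 lower at an unadjusted p under 0.05, against 0 and 0 without vehicle replicate 4 (all genes 5.13% and 4.84%, and 2.89% and 2.67%), so the count for this group depended on the libraries kept.

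NF-kB itself is regulated by feedback: its subunits and inhibitors are among its own targets, through kappa B sites near their promoters. The promoter windows (250 bases before to 50 after the start, RefSeq, GRCh38.p14) of 29 of 35 genes in the NF-kB lists were matched, and 13 of the 29 held the kappa B motif (its usual consensus, on either strand, scored as present or absent per window), against 5.91% of 35116 windows of that length. Windows of 3 feedback genes with the motif are shown, 5′ to 3′ on the strand of the gene with the motif in capitals, because these genes carry the feedback of the pathway and were measured here. They lie at chr14:35404700-35404999 on the minus strand for NFKBIA, chr6:137867009-137867308 on the plus strand for TNFAIP3 and chr4:102501109-102501408 on the plus strand for NFKB1.
NFKBIA: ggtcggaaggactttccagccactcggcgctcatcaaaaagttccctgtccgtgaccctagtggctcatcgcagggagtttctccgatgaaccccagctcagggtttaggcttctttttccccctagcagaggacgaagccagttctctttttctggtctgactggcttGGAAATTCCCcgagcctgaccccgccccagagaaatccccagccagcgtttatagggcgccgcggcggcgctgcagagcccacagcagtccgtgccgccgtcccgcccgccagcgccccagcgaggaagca
TNFAIP3: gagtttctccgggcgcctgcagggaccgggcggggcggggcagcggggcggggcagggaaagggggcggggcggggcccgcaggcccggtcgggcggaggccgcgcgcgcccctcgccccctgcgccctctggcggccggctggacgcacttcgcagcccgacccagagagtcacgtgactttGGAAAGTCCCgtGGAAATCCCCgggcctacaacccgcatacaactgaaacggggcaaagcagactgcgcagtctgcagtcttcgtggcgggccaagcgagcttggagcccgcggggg
NFKB1: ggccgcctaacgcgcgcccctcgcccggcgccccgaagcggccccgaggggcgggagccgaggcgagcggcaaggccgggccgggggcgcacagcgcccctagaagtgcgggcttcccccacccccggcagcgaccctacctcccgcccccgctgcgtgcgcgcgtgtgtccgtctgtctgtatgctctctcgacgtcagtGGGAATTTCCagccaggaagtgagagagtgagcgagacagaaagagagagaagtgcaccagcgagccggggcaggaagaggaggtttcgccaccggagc
The window of NFKBIA holds the motif at base -81 and that of NFKB1 at base -49, counted from the start, and the window of TNFAIP3 holds it at bases -67 and -55. Among tested genes matched to a window, those with the motif were higher at an unadjusted p under 0.05 in 5.71% of 735 cases and those without it in 7.05% of 10702.

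The transcripts of these genes did not all lie on one side of vehicle. NFKBIA, the inhibitor IkB-alpha that is a fast NF-kB target, was at 51.0, 63.8, 60.6 and 61.1 CPM in vehicle and 50.5, 54.2, 52.4 and 47.9 CPM in RANKL libraries. RANKL lay below vehicle in 4 of 4 pairs, the ranges overlapped through vehicle replicate 1, and the log2 fold change was -0.21 ± 0.08 (SE, unadjusted p = 0.0221), -0.20 without RANKL replicates 2 and 4 and -0.15 without vehicle replicate 4. TNFAIP3, the deubiquitinase A20 that ends the signal, was low, at 3.81, 1.19, 2.55 and 1.85 CPM in vehicle and 3.55, 2.67, 2.74 and 4.47 CPM in RANKL libraries. Passages 120 and 122, whose RANKL libraries have low RIN values, gave log2 ratios of 1.08 and 1.22 for TNFAIP3, whereas the other pairs gave -0.10 and 0.10, and the fitted value was 0.53 ± 0.29 with all libraries and 0.25 without RANKL replicates 2 and 4. NFKB1, the p105 and p50 subunit, was at -0.10 ± 0.08, and RELA, the p65 subunit, at 0.04 ± 0.08. NFKB2, the p100 and p52 subunit of the alternative branch, was at 813, 941, 850 and 1000.0 CPM in vehicle and 775, 951, 804 and 798 CPM in RANKL libraries, a log2 fold change of -0.12 ± 0.06 that was -0.04 without vehicle replicate 4. RELB, its partner and a target, was at about 1 CPM, with a log2 fold change of 0.53 ± 0.46 (0.27 without RANKL replicate 1). TNIP1, which works with A20, was at -0.12 ± 0.08 and, without vehicle replicate 4, at -0.05.

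In all, 13 NF-kB subunits and inhibitors were tested, with 0 higher and 1 lower (NFKBIA) at an unadjusted p under 0.05. Among all genes 6% were higher and 5.96% lower. The median log2 fold change of the 13 was -0.01. Of 22 listed NF-kB targets, 13 could be tested, with 0 higher, 1 lower and a median of -0.07. BCL2L1, the survival factor BCL-xL, was the lower one, at -0.12 ± 0.05 with RANKL below vehicle in 4 of 4 pairs. Without vehicle replicate 4, 0 members of either list were higher and 0 lower at that level (all genes 2.89% and 2.67%). BIRC2, an inhibitor of apoptosis, was above vehicle in 4 of 4 pairs at 0.19 ± 0.09. CSF1, the macrophage growth factor that acts with RANKL on osteoclast precursors, was at 2.78, 4.12, 1.89 and 5.68 CPM in vehicle and 2.41, 2.49, 2.54 and 2.45 CPM in RANKL libraries, so that the spread lay in the vehicle group (log2 fold change -0.52 ± 0.29, and -0.26 without vehicle replicate 4). ICAM1, an adhesion molecule, was near 1 CPM and had log2 ratios from -2.02 to 0.89. The 9 targets under the filter on low counts included 3 with 0 counts in all 8 libraries, CXCL8, LTB and VCAM1, and TNF, which had 1, 0, 3 and 0 counts in vehicle and 5, 7, 2 and 3 in RANKL libraries. TNF was singled out after its counts were seen, and 17 counts in 4 libraries do not support a fold estimate.

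**Figure D1:**
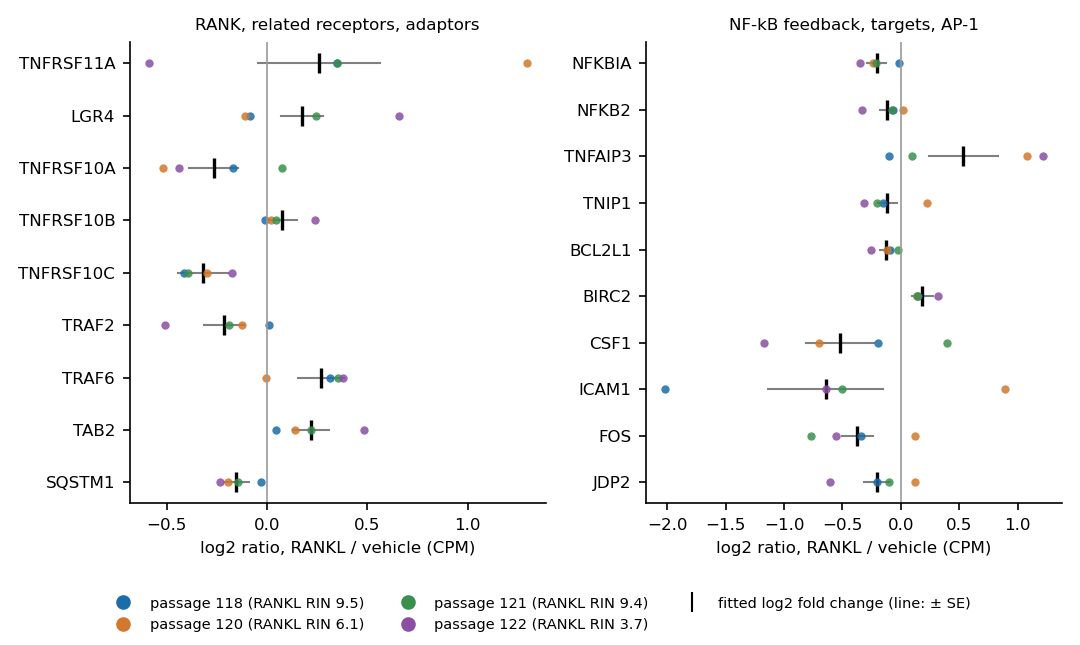
Log2 ratio of RANKL to vehicle CPM in each of the 4 passages (points) with the fitted log2 fold change (bar) ± SE (line) for RANK, related receptors and adaptors (left) and NF-kB feedback genes, targets and AP-1 genes (right). TNFRSF10C and NFKBIA lie below 0 in every pair, TAB2 and BIRC2 above it, and the pairs of TNFRSF11A, TNFAIP3 and ICAM1 scatter on both sides.

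RANK also signals through AP-1, and in osteoclast precursors through NFATC1. Of 13 tested genes of the osteoclast programme, 0 were higher and 1, FOS, was lower at an unadjusted p under 0.05. Among all genes the shares were 6% and 5.96%. The median log2 fold change of the 13 was -0.11. Without RANKL replicates 2 and 4, 3 of the 13 were lower (all genes 4.84%) and the median was -0.20. FOS was at 25.8, 36.7, 35.5 and 15.8 CPM in vehicle and 20.3, 39.8, 20.8 and 10.7 CPM in RANKL libraries, with a log2 fold change of -0.37 ± 0.13 (SE, unadjusted p = 0.00963) and -0.48 without RANKL replicates 2 and 4. In passages 118 and 121 alone FOS passed the threshold, at -0.57 ± 0.12 (edgeR adjusted p = 0.0428). NFATC1, the master factor of osteoclast formation, was at -0.09 ± 0.13. JDP2, an AP-1 family repressor, was at -0.21 ± 0.11, the proton pump subunit TCIRG1 at -0.18 ± 0.14 and the calcineurin subunit PPP3CA at 0.28 ± 0.20. Without vehicle replicate 4 these 4 genes were at 0.05, -0.06, -0.07 and 0.16. Among 24 immediate early and AP-1 genes, 0 were higher and 5 lower at an unadjusted p under 0.05 (all genes 6% and 5.96%). Their median was -0.05. Without RANKL replicates 2 and 4 the lower count was 2 (all genes 4.84%). The other named members were KLF4 at -0.20 ± 0.07, IER2 at -0.29 ± 0.10 and MYC at -0.31 ± 0.11. MYC, a growth-promoting factor, was at 24.4, 42.6, 22.4 and 42.4 CPM in vehicle and 21.9, 23.1, 22.6 and 37.9 CPM in RANKL libraries, so that passage 120 carried most of its difference (-0.14 without vehicle replicate 2).

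The smallest p-value of the comparison belonged to RN7SL1 (ENSG00000276168; chromosome 14, 49586580 to 49586878), the RNA of the signal recognition particle, which is not polyadenylated as a rule. It had 85, 163, 125 and 55 counts in vehicle and 66, 27, 41 and 29 counts in RANKL libraries, which is 6.22, 14.9, 9.11 and 3.76 CPM against 4.18, 1.68, 2.00 and 1.58 CPM. RANKL was below vehicle in 4 of 4 pairs, and the groups overlapped in 1 RANKL library. The log2 fold change was -1.82 ± 0.30 (SE; edgeR quasi-likelihood test, Benjamini-Hochberg adjusted p = 0.0626), -1.47 without RANKL replicates 2 and 4 and -2.03 without vehicle replicate 4, where the edgeR adjusted p was 0.00925. Levels in OPG libraries were 3.09 ± 0.563 CPM and in denosumab libraries 3.26 ± 0.457 CPM (mean ± SD, n = 4), against 2.36 ± 1.23 CPM with RANKL and 8.51 ± 4.81 CPM with vehicle. The vehicle group was thus the one with the high level and the wide spread. The same held for SNHG25 (ENSG00000266402), a host gene of small nucleolar RNAs, which was at 15.7, 39.4, 11.9 and 20.7 CPM in vehicle and 5.70, 14.8, 6.20 and 8.56 CPM in RANKL libraries. Its log2 fold change was -1.30 ± 0.25, and OPG libraries were at 9.29 ± 2.28 CPM and denosumab libraries at 10.2 ± 1.62 CPM. The comparisons of RANKL, OPG and denosumab with vehicle share the vehicle libraries. RN7SL1 shares sequence with other copies of its family, so its counts are uncertain.

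Among the other genes lower with RANKL in every pair, KRT7, a keratin of simple epithelia, was at 93.6, 206, 179 and 212 CPM in vehicle and 84.0, 157, 150 and 147 CPM in RANKL libraries. Passage 118 had a low level in both groups, and the log2 fold change was -0.34 ± 0.07 (SE, unadjusted p = 0.000104), -0.32 without RANKL replicates 2 and 4 and -0.28 without vehicle replicate 4. C19orf48P was also at -0.34 ± 0.07. TOMM22 (-0.32 ± 0.08) and TIMM44 (-0.32 ± 0.08) belong to the import machineries of the outer and inner membrane. PYCR1, which makes proline in mitochondria, was at 106, 129, 112 and 123 CPM in vehicle and 88.1, 104, 93.7 and 101 CPM in RANKL libraries, with no overlap, and its pairs were alike (log2 ratios -0.26, -0.31, -0.26 and -0.27). NDUFA13, a subunit of respiratory complex I, was at -0.52 ± 0.13, of which passage 122 contributed a log2 ratio of -1.03 and the other pairs -0.30 to -0.35. Also lower were NRGN at -0.37 ± 0.09, HMGN2, a nucleosome-binding protein, at -0.27 ± 0.07, and CAVIN1, a coat protein of caveolae, at -0.22 ± 0.06. DPM3, a subunit of dolichol-phosphate mannose synthase, was at -0.58 ± 0.15. SNAPC2, a subunit of a complex that activates transcription of small nuclear RNA genes, was at -0.54 ± 0.14. The pseudogene RPL7P9, whose reads can belong to its parent gene, was at -0.72 ± 0.18.

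Genes higher with RANKL in every pair and named for their small p included 5 mitochondrially encoded mRNAs, described below with the rest of that genome. MTND1P23, a nuclear copy of MT-ND1, was also among them, and its counts (0.34 ± 0.09) cannot be told from those of the mitochondrial gene with certainty. NFAT5, the factor that answers osmotic stress, was at 35.4, 22, 33.3 and 16.9 CPM in vehicle and 41.3, 37.5, 41.2 and 36.4 CPM in RANKL libraries. No RANKL value of NFAT5 lay below a vehicle value, and the spread was wider in the vehicle group. The log2 fold change was 0.56 ± 0.14 (SE, unadjusted p = 0.000785) and 0.37 without vehicle replicate 4. PCNX1, a membrane protein of the pecanex family, was at 109, 94.4, 102 and 84.3 CPM against 122, 111, 126 and 121 CPM, again without overlap (0.31 ± 0.07). ALDH1L2, a folate enzyme of mitochondria, was at 0.62 ± 0.15, FHIP2A at 0.59 ± 0.14, the tight junction protein CLDN12 at 0.52 ± 0.13, and USP8, a deubiquitinase of endosomes, at 0.40 ± 0.10. DDHD2, a lipase, and TENT2, a poly(A) polymerase of the cytoplasm, were both at 0.37 ± 0.09. For NFAT5, PCNX1, FHIP2A, CLDN12, USP8 and DDHD2 the pair of passage 122 gave the highest log2 ratio, for example 1.18 for FHIP2A and 0.79 for USP8.

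The fit without RANKL replicates 2 and 4 ordered the genes by other pairs. NUF2, a kinetochore protein, was at 0.58 there against 0.32 with all libraries, SMC3, a cohesin subunit, at 0.36 against 0.23, and FAM135A at 0.75 against 0.55. In passage 120 these 3 genes were below vehicle (log2 ratios -0.22, -0.11 and -0.22). On the lower side were SH3D21 (-0.37 against -0.27), ZFTRAF1 (-0.47 against -0.33), TSTD1 (-0.52 against -0.35) and the pseudogenes GAPDHP60 (-0.96 against -0.56) and RPL13P12 (-0.79 against -0.55). None passed the adjusted threshold in that fit, while SMC3 and ZFTRAF1 did in passages 118 and 121 alone (edgeR adjusted p = 0.0428 for both).

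**Figure D2:**
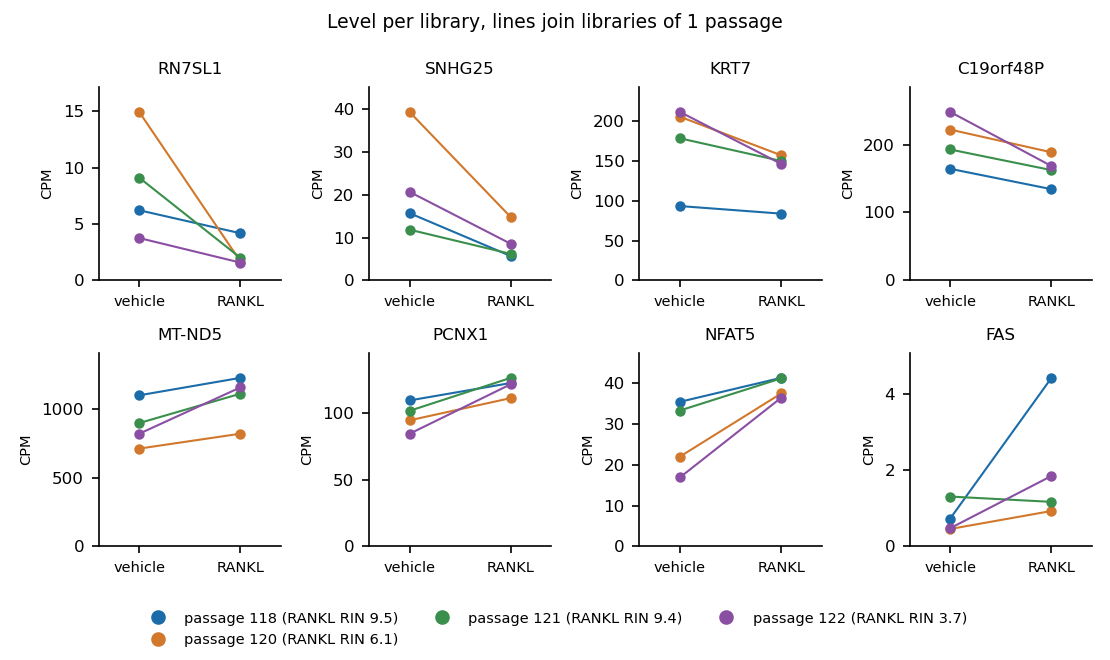
CPM in the vehicle and RANKL libraries of each passage, joined by a line, for 8 genes, each with its own axis from 0. RN7SL1, SNHG25, KRT7 and C19orf48P go down and MT-ND5, PCNX1 and NFAT5 go up in 4 of 4 passages, while FAS goes up in 3.

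The 13 mRNAs of the mitochondrial genome encode core subunits of the respiratory chain and ATP synthase. Of these, 11 were higher with RANKL at an unadjusted p under 0.05 and 0 were lower, against 6% and 5.96% of all genes. Their median log2 fold change was 0.17, and 10 of 13 were higher in 4 of 4 pairs, against 9.81% of all genes. The RANKL and vehicle values overlapped for each of the 13. The 13 transcripts are cut from long shared precursors, so they are not independent. MT-ND5, a complex I subunit, was at 1100.0, 710.0, 895 and 818 CPM in vehicle and 1220.0, 818, 1110.0 and 1150.0 CPM in RANKL libraries. Passage 120 was the lowest in both groups. The log2 fold change of MT-ND5 was 0.29 ± 0.06 (SE; edgeR quasi-likelihood test, Benjamini-Hochberg adjusted p = 0.164), and it was 0.30 without RANKL replicates 2 and 4 and 0.23 without vehicle replicate 4.

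The other complex I mRNAs were MT-ND4L at 0.37 ± 0.07, MT-ND4 at 0.23 ± 0.05, MT-ND2 at 0.16 ± 0.05 and MT-ND1 at 0.15 ± 0.06. MT-CYB of complex III was at 0.17 ± 0.05, and MT-CO1, MT-CO2 and MT-CO3 of complex IV were at 0.14 ± 0.05, 0.18 ± 0.05 and 0.14 ± 0.06. MT-ATP6 and MT-ATP8 of ATP synthase were at 0.23 ± 0.06 and 0.40 ± 0.10. The exceptions were MT-ND3 (-0.01 ± 0.07) and MT-ND6 (-0.05 ± 0.11), the one mRNA encoded on the light strand. Both of these were positive, at 0.09 and 0.07, without RANKL replicates 2 and 4. Counts of MT-ND4L with MT-ND4 and of MT-ATP8 with MT-ATP6 cannot be fully separated, because those genes overlap.

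As a share of all counts, the 13 mRNAs made up 2.221%, 1.745%, 1.888% and 2.027% of the vehicle libraries and 2.342%, 1.91%, 2.403% and 2.373% of the RANKL libraries. The share was higher in 4 of 4 pairs, with overlapping groups, and the means were 1.97% ± 0.203 and 2.257% ± 0.233 (SD). The difference of 0.287 percentage points exceeded the SD of either group and did not pass the test that ignores passages (exact two-sided permutation test, 4 against 4, p = 0.0857, where the smallest p possible is 0.0286). The exact paired test within passages gave the smallest p that 4 pairs allow, which is above 0.05. Without RANKL replicates 2 and 4 the difference was 0.403 points (exact permutation test, p = 0.133, smallest possible 0.0667). The median over the 13 mRNAs was 0.22 without those libraries, 0.18 without vehicle replicate 4 and 0.24 without all 3, and 11 of 13 were higher at an unadjusted p under 0.05 in each of these fits. OPG libraries held 2.191%, 1.908%, 1.788% and 2.094% and denosumab libraries 2.316%, 2.051%, 2.314% and 2.447%.

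**Figure D3:**
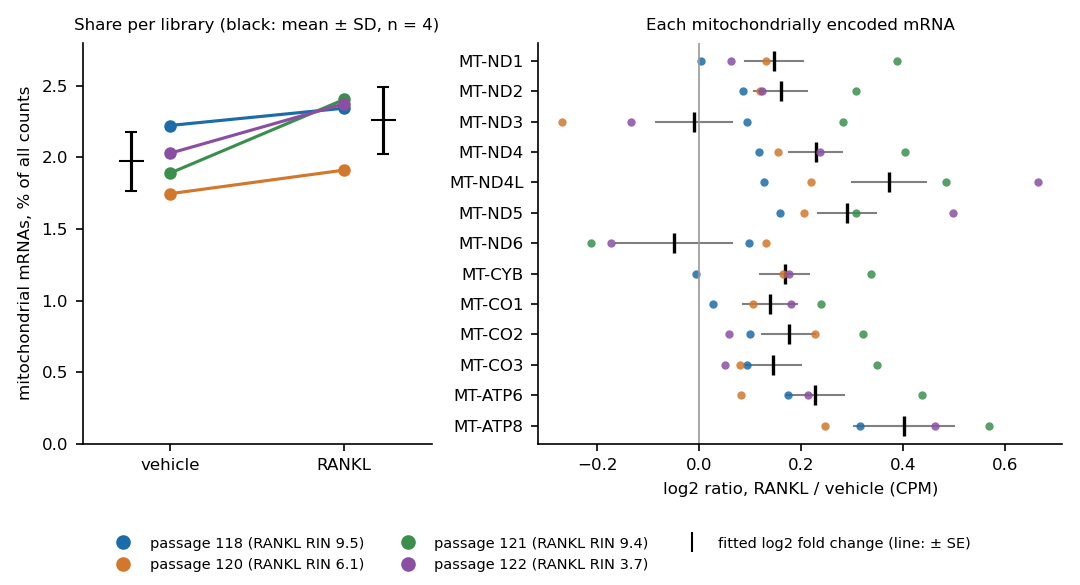
Left, percent of all counts from the 13 mitochondrially encoded mRNAs per library, joined within passages, with mean ± SD (n = 4). Right, log2 ratio of RANKL to vehicle per passage and fitted log2 fold change ± SE for each mRNA: 11 of 13 bars lie above 0, and the share is higher in RANKL in all 4 passages, from 1.97% to 2.257% on average.

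The nuclear genes of the respiratory chain did not share this direction. Of 73 tested, 2 were higher and 15 lower at an unadjusted p under 0.05, with a median of -0.08. COX4I1 (-0.19 ± 0.07) and COX6B1 (-0.21 ± 0.07) of complex IV and NDUFA3 (-0.26 ± 0.10) of complex I were lower in 4 of 4 pairs. Cytosolic ribosomal proteins lay on the same side: of 78, 0 were higher and 23 lower, against 5.96% of all genes, with a median of -0.09. RPL8 was at -0.22 ± 0.07, RPL23 at -0.18 ± 0.05, RPL18 at -0.22 ± 0.08 and RPS15 at -0.28 ± 0.11. In 4 of 4 pairs, 21 of 78 ribosomal protein genes and 17 of 73 nuclear respiratory genes were lower. Among all genes this share was 11%. The medians of both groups rested mainly on 1 passage. The median log2 ratio of the ribosomal protein genes was 0.005, 0.018, -0.055 and -0.328 in passages 118, 120, 121 and 122, and that of the nuclear respiratory genes was -0.004, 0.005, -0.045 and -0.281. Without RANKL replicates 2 and 4, 8 of 78 and 6 of 73 were lower at an unadjusted p under 0.05 (all genes 4.84%). Without vehicle replicate 4, the counts of lower genes were 2 of 78 and 1 of 73, where 2.67% of all genes were lower.

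Gene length moved with that passage. When genes were split by the deposited length into 5 classes of equal size, the median log2 ratio of RANKL to vehicle in passage 122 was -0.218 in the shortest class and 0.224 in the longest. In the other 3 passages it stayed between -0.0406 and 0.048 in every class. The OPG and denosumab libraries of passage 122, set against the same vehicle library, gave -0.173 and 0.208 and -0.242 and 0.245. The scaled median absolute deviation of log2 ratios between RANKL replicate 4 (RIN 3.7) and denosumab replicate 4 was 0.116. By this measure vehicle replicate 4 was no closer than 0.332 to any library of its passage. Ribosomal protein genes took 7.101% of the counts of vehicle replicate 4 and 5.889% to 6.472% of those of the other vehicle libraries. What set this library apart was not tested.

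**Figure D4:**
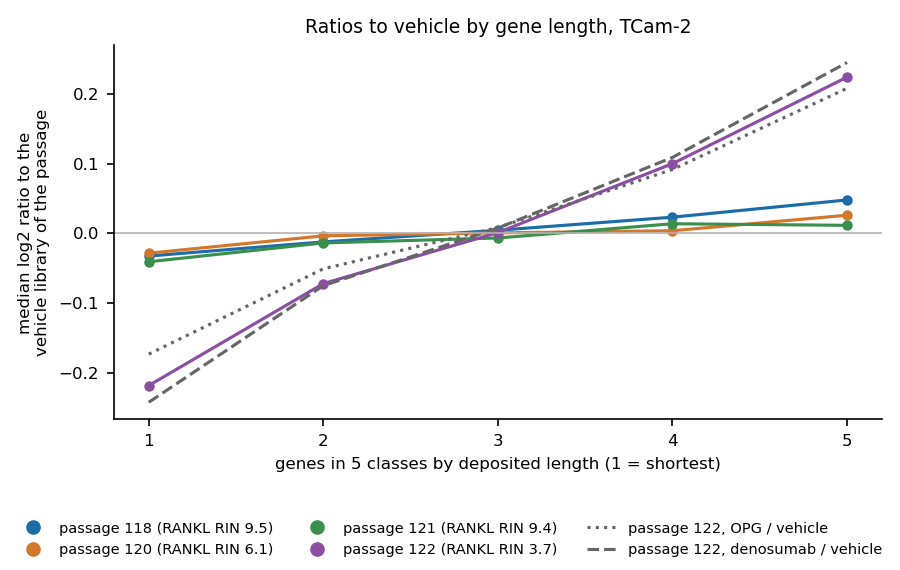
Median log2 ratio to the vehicle library of the same passage by class of gene length (1 is the shortest), for the 4 RANKL libraries and, in grey, the OPG and denosumab libraries of passage 122. The 3 lines of passage 122 run from about -0.2 to 0.2, and those of the other passages stay between -0.0406 and 0.048.

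Lower genes were also counted in the integrated stress and unfolded protein response, the programme by which cells answer amino acid shortage and misfolded proteins. Of 29 genes tested, 0 were higher and 9 lower at an unadjusted p under 0.05, against 6% and 5.96% of all genes, with a median log2 fold change of -0.08. The median ratio was negative in each passage (-0.076, -0.079, -0.038 and -0.139), and 11 of 29 genes were lower in 4 of 4 pairs, against 11% of all genes. ATF4, its central transcription factor, was at 439, 536, 504 and 553 CPM in vehicle and 393, 505, 452 and 443 CPM in RANKL libraries. RANKL was below vehicle in every pair of overlapping groups, with a log2 fold change of -0.18 ± 0.05 (SE, unadjusted p = 0.00104), -0.20 without RANKL replicates 2 and 4 and -0.13 without vehicle replicate 4. PHGDH, the first enzyme of serine synthesis and an ATF4 target, was at -0.18 ± 0.05. PPP1R15A, which restores translation after stress, was at -0.27 ± 0.09, and DDIT3, the stress factor CHOP, at -0.29 ± 0.10, both lower in 4 of 4 pairs. The lower count was 8 of 29 without RANKL replicates 2 and 4 (all genes 4.84%) and 5 of 29 without vehicle replicate 4 (all genes 2.67%).

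Among genes of cell identity, SOX17 was at -0.18 ± 0.11 (-0.09 without vehicle replicate 4) and NANOG at -0.06 ± 0.05. Of 17 core pluripotency genes, 0 were higher and 5 lower at an unadjusted p under 0.05 (all genes 6% and 5.96%). Their median was -0.06. Without RANKL replicates 2 and 4, 1 was higher and 2 lower (all genes 5.13% and 4.84%) with the same median. Without vehicle replicate 4 the counts were 0 and 3 (all genes 2.89% and 2.67%), with a median of -0.07. UTF1, a chromatin factor of pluripotent cells, was at 11.7, 15.1, 9.69 and 14.6 CPM in vehicle and 5.51, 8.58, 7.87 and 8.34 CPM in RANKL libraries. The groups did not overlap, and the log2 fold change was -0.76 ± 0.23 (SE, unadjusted p = 0.00304), -0.92 without RANKL replicates 2 and 4 and -0.63 without vehicle replicate 4. UTF1 was at 7 ± 3.01 CPM in OPG and 12.2 ± 3.85 CPM in denosumab libraries. TERT, the catalytic subunit of telomerase, was at 4.25, 5.50, 4.66 and 6.50 CPM against 4.12, 3.17, 3.27 and 3.65 CPM, also without overlap (-0.56 ± 0.20). POU5F1, the factor OCT4, was at -0.18 ± 0.06, with a log2 ratio of -0.47 in passage 122 and of 0.00 to -0.15 in the others (-0.08 without vehicle replicate 4), and its reads are shared with pseudogenes. KLF4 was given above.

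Among 18 seminoma and germ cell genes, 2 were higher and 3 lower at an unadjusted p under 0.05 (all genes 6% and 5.96%). Their median was -0.04. Without RANKL replicates 2 and 4 the median was -0.13, with 15 of 18 negative, 0 higher and 2 lower (all genes 5.13% and 4.84%). Without vehicle replicate 4 the median was -0.07, with 1 higher and 3 lower (all genes 2.89% and 2.67%). CXCR4, the chemokine receptor that guides germ cells, was at 396, 324, 386 and 326 CPM in vehicle and 416, 391, 396 and 375 CPM in RANKL libraries (0.14 ± 0.05, higher in 4 of 4 pairs). KIT, the receptor for stem cell factor that is often active in seminoma, was at 0.22 ± 0.09, with log2 ratios of 0.01, 0.10, 0.18 and 0.60 (0.12 without vehicle replicate 4). SOX15 was at -0.24 ± 0.07 and lower in 4 of 4 pairs, and TCL1B, a coactivator of AKT, at -0.68 ± 0.23. TKTL1, a transketolase-like gene of the cancer-testis list, was at 4.54, 4.31, 3.57 and 3.83 CPM against 6.78, 5.78, 5.62 and 6.98 CPM, with no overlap (0.64 ± 0.19).

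Proliferation genes were spread to both sides. Of 35 genes of S phase and mitosis, 6 were higher and 4 lower at an unadjusted p under 0.05 (all genes 6% and 5.96%). Their median was 0.06. Without RANKL replicates 2 and 4 the counts were 8 and 5 (all genes 5.13% and 4.84%). Without vehicle replicate 4 the counts were 2 and 3 (all genes 2.89% and 2.67%). The mitotic motor KIF11 was at 75.1, 69.6, 78.8 and 74.3 CPM in vehicle and 101, 75.6, 87.4 and 88.0 CPM in RANKL libraries, higher in 4 of 4 pairs (0.24 ± 0.08, and 0.36 without RANKL replicates 2 and 4). CENPE, another mitotic motor, was at 0.34 ± 0.12, the S phase cyclin CCNA2 at 0.19 ± 0.07 and the proliferation marker MKI67 at 0.19 ± 0.08, and without vehicle replicate 4 CENPE was at 0.19 and MKI67 at 0.09. CDC20, which activates the anaphase-promoting complex, was lower in 4 of 4 pairs at -0.17 ± 0.05 (unadjusted p = 0.00193). Among 22 G1 cyclins, kinases and inhibitors, 1 was higher and 3 lower, among them E2F4 and E2F1 at -0.16 ± 0.06 and -0.17 ± 0.08, while RBL1, the pocket protein p107, was at 0.24 ± 0.11. Without vehicle replicate 4 the G1 counts were 2 and 0, with E2F4 at -0.09, E2F1 at -0.08 and RBL1 at 0.18.

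Death and p53 genes held 1 gene with a large ratio. FAS, a death receptor and p53 target, had 0.732, 0.458, 1.31 and 0.479 CPM in vehicle and 4.44, 0.932, 1.17 and 1.85 CPM in RANKL libraries. It was above vehicle in 3 of 4 pairs, most in passage 118, and the log2 fold change was 1.43 ± 0.46 (SE, unadjusted p = 0.00461), 1.52 without RANKL replicates 2 and 4 and 1.30 without vehicle replicate 4. Without RANKL replicate 1 it was 0.91. Of 26 apoptosis regulators 2 were higher and 1 lower at an unadjusted p under 0.05 (all genes 6% and 5.96%). Their median was -0.03. Of 25 p53 pathway genes 3 were higher and 2 lower, with a median of -0.04. Without vehicle replicate 4 the counts were 2 and 0 for the apoptosis regulators and 1 and 1 for the p53 pathway. Among all genes the shares in that fit were 2.89% and 2.67%. CCNG1, a p53 target that feeds back on MDM2, was at 113, 70.9, 85.4 and 72.3 CPM against 144, 70.2, 120.0 and 121 CPM (0.41 ± 0.14, and 0.61 without RANKL replicates 2 and 4), and it passed in passages 118 and 121 alone at 0.43 ± 0.08 (edgeR adjusted p = 0.0185). PHLDA3, a p53 target that restrains AKT, was at -0.20 ± 0.07 (-0.11 without vehicle replicate 4). CDKN1A (p21) and MDM2, the best known targets, were at -0.09 ± 0.11 and 0.05 ± 0.07.

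The remaining groups are given by their counts at an unadjusted p under 0.05, to be read against 6% higher and 5.96% lower among all genes. Of 29 hypoxia and glycolysis genes, 0 were higher and 5 lower, with a median of -0.07 (-0.12 without RANKL replicates 2 and 4, -0.04 without vehicle replicate 4). VEGFA, the angiogenic factor, was at -0.37 ± 0.15 and nearly level in passage 122, while ALDOA (-0.31 ± 0.13), LDHB (-0.18 ± 0.07) and PFKL (-0.16 ± 0.07) were furthest from 0 there (-0.14, -0.10 and -0.09 without vehicle replicate 4). Of 26 cholesterol synthesis genes, 3 were higher and 3 lower: STARD4, a cholesterol carrier, was at 0.32 ± 0.11, and TM7SF2, a sterol reductase, at -0.29 ± 0.11. Among 40 matrix, integrin and invasion genes, 5 were higher and 1 lower, with ITGA6 at 0.25 ± 0.08, ITGAV at 0.26 ± 0.09, LAMC1 at 0.17 ± 0.06 and the collagen COL1A2 at -0.15 ± 0.06. For the 3 higher ones passage 122 gave the highest ratio (0.57, 0.70 and 0.45), and without vehicle replicate 4 they were at 0.14, 0.13 and 0.08. The counts for the matrix, integrin and invasion genes in that fit were 4 higher and 3 lower (all genes 2.89% and 2.67%). Of 18 WNT and TGF-beta family targets, 0 were higher and 3 lower: SMAD6, an inhibitor of BMP signalling, was at 13.6, 13, 11.1 and 14.9 CPM against 7.60, 9.01, 7.38 and 10.5 CPM, without overlap (-0.60 ± 0.20), and TCF7, a WNT effector, had pairs of -0.31, -0.24, -0.23 and -0.26. ID3, a BMP target, was at -0.19 ± 0.08. Of 17 interferon and antigen presentation genes, 0 were higher and 2 lower, IRF7 (-0.57 ± 0.19) and HLA-E (-0.22 ± 0.09). The numbers of higher and lower genes were 0 and 1 of 11 embryonal carcinoma genes and 1 and 1 of 15 differentiation genes. They were 1 and 0 of 5 cancer-testis genes and 2 and 0 of 9 writers and erasers of DNA methylation. For heat shock genes they were 1 and 1 of 18, and for replication-dependent histones 0 and 0 of 15. Of 4 noncoding RNAs (RN7SL1, MT-RNR2, MT-RNR1 and SNORD3A), 1 was higher, MT-RNR2, and 2 were lower, RN7SL1 among them. Of the marker lists of other cells, 0 of 6 fibroblast genes were higher and 1, COL1A2, was lower, and 1 of 4 Sertoli, Leydig and endothelial genes was higher, while 0 of 2 immune and 0 of 2 osteoclast markers lay on either side.

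**Figure D5:**
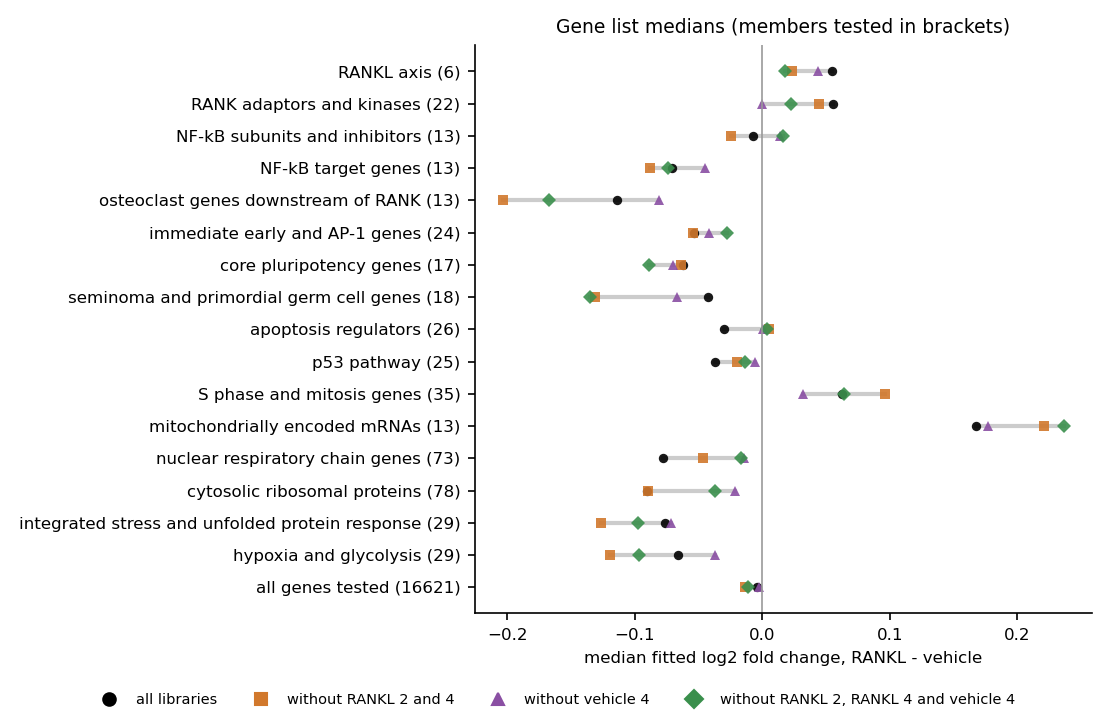
Median fitted log2 fold change of the tested members of 16 gene lists and of all genes, with all 8 libraries and in 3 fits that leave libraries out. The mitochondrially encoded mRNAs stay between 0.17 and 0.24 in all 4 fits, while the ribosomal protein and nuclear respiratory lists move towards 0 when vehicle replicate 4 is left out.

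Against the embryonal carcinoma-derived line NTera2, given RANKL in the same series, no gene passed the test of a different response. Of 19216 genes, 0 had an adjusted p under 0.05 (edgeR quasi-likelihood test of the interaction, smallest adjusted p = 0.489), which is 0% called, and 1303 had an unadjusted p under 0.05 (4.47% more positive in TCam-2, 2.31% more negative), while DESeq2 called 2. The median interaction over all genes was 0.0439, not 0, and the imbalance moved with the normalization. With RLE factors the median was 0.0248, with 723 positive and 521 negative genes at that level, against 859 and 444. In NTera2 alone, 0 of 17351 genes passed, with 1283 (7.39%) higher and 1551 (8.94%) lower at an unadjusted p under 0.05. Of the 13 mitochondrial mRNAs, 7 were higher in NTera2 at that level, with a median of 0.13 against 0.17 in TCam-2, and 3 of 13 had an unadjusted interaction p under 0.05. For ATF4 the log2 fold change was -0.18 in TCam-2 and 0.01 in NTera2, with an unadjusted p of 0.0211 for the interaction in edgeR. The log2 fold change of UTF1 was -0.76 in TCam-2 and -0.998 in NTera2, and its interaction had an unadjusted p of 0.457. TNFRSF11A was at -0.04 ± 0.15 in NTera2, and its interaction had an unadjusted p of 0.324. The interaction with the smallest p was that of ANKRD36C, at 2.30 ± 0.478 (SE), from 0.941 to 1.84 CPM with RANKL in TCam-2 and from 1.55 to 0.611 CPM in NTera2. GABRQ, a GABA receptor subunit, had 478 CPM in vehicle and 534 CPM in RANKL libraries of TCam-2, and 14.1 and 11.9 CPM in NTera2 (interaction 0.44 ± 0.10).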

How the data were processed

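Polyadenylated RNA was sequenced from TCam-2 and NTera2 cells as stranded, paired 52-bp libraries, per the labels' protocols. The submitters' processing notes name bcl2fastq 2.20.0, STAR 2.7.9a with the GRCh38/hg38 genome, and featureCounts 1.6.2. Overlapping and antisense genes are uncertain, since neither the annotation release nor the strand setting is given in the sources used here. The deposited values were raw read counts per gene, whole numbers for 61541 genes in 32 libraries, and 0 columns were left unmapped. Chromosome, start, end and length came with the deposited counts in a form other than a count. Symbols were matched by identifier for 61369 genes.

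All 16 TCam-2 libraries were fitted together with edgeR 4.0.16 under R 4.3.3 (TMM, filterByExpr, robust quasi-likelihood F test, Benjamini-Hochberg over all genes tested), with passage as a block and RANKL minus vehicle as the contrast. An adjusted p under 0.05 was called. SE is the size of the log2 fold change divided by the square root of F. CPM used TMM factors over the 16 libraries, and ratios within passages used log2 CPM with a prior count of 2. The difference between lines was an interaction contrast over all 32 libraries. The block rests on the labelled passages, and the deviations of same-numbered libraries from their group means correlated at 0.458, 0.194, 0.336 and 0.0334 over 10881 genes at 5 CPM or more on average. Libraries of 1 group were not copies of each other: their chi-square per degree of freedom was 3.247 to 17.55. The fits were run on simulated counts that held no passage effect and no library set apart as vehicle replicate 4 was. That run therefore does not show how many true differences these data would miss.

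Genes were named by rule: TNFSF11, TNFRSF11A and TNFRSF11B; the 14 higher and 14 lower with the smallest p among genes at 5 CPM or more with the same sign in 4 of 4 pairs and without RANKL replicates 2 and 4; the 8 in each direction from that smaller fit; up to 4 per list and its defining members; and the 4 in each direction of the interaction, of which 2 are given. Some genes that this rule names are not reported here. The 32 lists and the comparison were chosen with earlier results of these data known. Lists were counted and not tested. Alternatives were the fit without the block, 8 libraries only, pairs 1 and 3, RIN as a covariate, DESeq2 1.42.0, RLE factors, length offsets, no filter and leaving out each library. Leaving out vehicle replicate 4 together with RANKL replicates 2 and 4 was added after seeing the data. The kappa B motif was searched in RefSeq promoter windows.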

Additional observations from a re-analysis of the deposited data

Results flagged for a closer look

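In 262 groups of 4 values (the named genes and the library measures, in vehicle and in RANKL), 19 (7.25%) had 1 library far from the other 3 by Dixon's test, and chance alone flags about 1 in 20. That test took no account of passage. RANKL replicate 2 (RIN 6.1) was the distant library in 11 of the 19. It was high in CPM for NFKB2 (951 against 775 to 804 in the other RANKL libraries), RELA (55.1 against 47.8 to 48.5), TNIP1 (68.7 against 55.8 to 57.2), E2F1 (117 against 98.3 to 101), COX4I1 (302 against 250 to 256), LDHB (140.0 against 117 to 119), TSTD1 (25.0 against 15.3 to 16.5) and PPP3CA (6.65 against 5.02 to 5.28), and low for TENT2 (30.6 against 36.9 to 38.1). It also had the lowest mitochondrial mRNA share of the RANKL libraries (1.91% against 2.34% to 2.40%) and the highest ribosomal protein share (6.46% against 5.79% to 5.87%). Its vehicle library of passage 120 lay on the same side in both shares (1.745% and 6.472%). That vehicle library was at 941 CPM for NFKB2, 306 for COX4I1, 149 for LDHB, 115 for E2F1 and 22.4 for TSTD1. For RELA it was at 49 CPM, for TNIP1 at 58.9, for PPP3CA at 4.86 and for TENT2 at 21.9.

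RANKL replicate 1 was low for KRT7 (84.0 against 147 to 157 CPM) and TNFRSF10C (11.9 against 14.8 to 15.4 CPM) and high for RN7SL1 (4.18 against 1.58 to 2.00 CPM). RANKL replicate 4 was high for MYC (37.9 against 21.9 to 23.1 CPM). In the vehicle group, replicate 2 was low for ICAM1 (0.275 against 1.09 to 1.17 CPM), replicate 3 was high for ALDH1L2 (12.2 against 7.47 to 8.25 CPM), and replicate 4 was low for MDM2 (179 against 223 to 229 CPM) and high in the share of counts taken by its 50 most abundant genes (14.1% against 13% to 13.1%).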

How the results depend on the processing

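The count of genes past the adjusted threshold was 0 with edgeR in the fit with the replicate block and 0 without it, without RANKL replicates 2 and 4, with RIN as a covariate, with RLE factors, with length offsets, and without those libraries and vehicle replicate 4. It was 13 in pairs 1 and 3 alone (7 higher, 6 lower), 1 (SNHG25) in the 8 libraries alone, 4 with DESeq2 and 186 (101 higher, 85 lower, 11 of them mitochondrial mRNAs) with no filter on low counts, where 35493 genes were tested; the cause was not tested. Leaving out 1 library at a time gave 0 to 1: RN7SL1 without RANKL replicate 1, vehicle replicate 1 or vehicle replicate 4, and SNHG25 without vehicle replicate 3. The replicate block moved the number of genes at an unadjusted p under 0.05 from 1482 to 1987. That number was 1163 with RIN as a covariate, 1225 without RANKL replicate 1, 1248 without RANKL replicate 4 and 948 without vehicle replicate 4, and up to 2735 without RANKL replicate 2. The interaction gave 0 genes in all settings except DESeq2 (2) and no filter (7), and with no filter 2151 had an unadjusted p under 0.05 against 1303; leaving out 1 library gave 0 to 0. The difference in mitochondrial mRNA share was 0.212 to 0.403 percentage points when 1 library was left out, and the exact paired test within passages (replicate block) gave 0.287 with the smallest p that 4 pairs allow. Of 124 genes followed, 115 kept their sign in every setting. The others were near 0 or variable: TNFRSF10B turned to -0.00246, -0.0111 and -0.0135 (without RANKL replicates 2 and 4, with RIN, and without those and vehicle replicate 4), MT-ND3 to 0.0852, 0.06996 and 0.0947, MT-ND6 to 0.0651, 0.0664 and 0.0593, and RELA to -0.0242 and -0.00346 in the first 2. In pairs 1 and 3, TNFAIP3 turned to -0.0155, CSF1 to 0.0743, CDKN1A to 0.00518 and MT-ND3 to 0.191. With length offsets MT-ND3 was 0.219 and MT-ND6 0.142, and with no filter MT-ND3 was 0.00227. With 1 library left out MT-ND3 ranged from -0.083 to 0.0784, MT-ND6 from -0.143 to 0.0687, NFATC1 from -0.164 to 0.0544 and MDM2 from -0.0324 to 0.112. TNFRSF11A had 8 to 52 counts per library and an SE of 0.30, so a difference of its size was not detectable; how much of that SE is counting error was not tested.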
